A study of Mus musculus with 4 samples.

Results

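Sites bound by p63 in wild-type mouse epidermis, inside the body of a protein-coding gene and without a counterpart in alphaKO epidermis, numbered 1221. They were chosen from the wild-type (WT) list of 10616 peaks, out of 25209 peaks in the WT and alphaKO lists together. A WT peak was taken if it shared no base with any alphaKO peak, and if its summit lay in a protein-coding gene more than 1 kb from every protein-coding gene end (RefSeq, GRCm38.p6, the assembly of mm10). The choice used the peak calls of both libraries, so peak strength, overlap and everything else read from those calls is given for these sites as a description, with no test.

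The study examined chromatin immunoprecipitation with sequencing (ChIP-seq) of p63 in epidermis of newborn mice, at postnatal day 0. The groups were p63 alphaKO epidermis (1 ChIP library) and wild-type epidermis (1 ChIP library); the input library of each genotype was not used here. Both ChIP libraries used antibody EPR570 against p63 on dorsal skin epidermis that had been freed from dermis, made into single cells and fixed in 1% formaldehyde for 10 min. The labels give neither the allele behind the name alphaKO, nor strain, sex, or the number of animals per library. With 1 library per genotype there is no replicate error, and no difference between genotypes can be tested. Peak lists hold no RNA, so neither the genotype nor the tissue label could be checked against marker expression.

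p63 is a transcription factor of the p53 family that stratified epithelia need for their formation and for the upkeep of basal keratinocytes. Its gene gives rise to proteins with different carboxy-terminal ends, named alpha, beta and gamma, which share a DNA-binding domain. In epidermis p63 is known to bind mostly away from promoters, at enhancers between and within genes, where it recognises a palindromic motif shared with p53.

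Among the 1221 sites, 136 overlapped the promoter window of a listed transcription start, 112 of these at a start of the host gene and 24 at one of a long noncoding RNA. A window runs from 250 bases before to 50 after its start, and the stretches before 5 of these starts show examples from that group. They are printed as the 250 bases before the start, 5′ to 3′ on the strand of the gene, from RefSeq (GRCm38.p6). Capitals mark a match to the p53-family consensus, a GC box (GGGCGG or its complement CCGCCC), or the AP-1 motif TGACTCA. The sixth stretch, before a start in Bbc3, is shown for contrast: its WT site had an alphaKO partner, and it was the strongest such site over a window with a p53-family match. These windows and genes were picked after their values were seen.

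Stox2 (chr8:47352349-47352598, minus strand): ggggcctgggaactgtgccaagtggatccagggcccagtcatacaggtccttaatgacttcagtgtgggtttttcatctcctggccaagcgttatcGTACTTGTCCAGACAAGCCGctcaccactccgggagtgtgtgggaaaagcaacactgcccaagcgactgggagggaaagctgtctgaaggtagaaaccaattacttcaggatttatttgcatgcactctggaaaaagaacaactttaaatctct
Trim7 (chr11:48837221-48837470, plus strand): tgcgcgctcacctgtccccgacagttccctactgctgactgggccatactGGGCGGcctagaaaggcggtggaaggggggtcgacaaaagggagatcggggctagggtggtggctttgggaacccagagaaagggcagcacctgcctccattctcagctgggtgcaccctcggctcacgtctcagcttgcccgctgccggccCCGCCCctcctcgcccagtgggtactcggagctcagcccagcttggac
Adgrf4 (chr17:42692285-42692534, minus strand): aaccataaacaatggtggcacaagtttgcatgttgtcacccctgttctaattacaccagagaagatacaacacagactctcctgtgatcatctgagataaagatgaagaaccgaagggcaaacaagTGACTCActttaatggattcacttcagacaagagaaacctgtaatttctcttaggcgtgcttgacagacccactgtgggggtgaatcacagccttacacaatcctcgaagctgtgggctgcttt
Dram1 (chr10:88357076-88357325, minus strand): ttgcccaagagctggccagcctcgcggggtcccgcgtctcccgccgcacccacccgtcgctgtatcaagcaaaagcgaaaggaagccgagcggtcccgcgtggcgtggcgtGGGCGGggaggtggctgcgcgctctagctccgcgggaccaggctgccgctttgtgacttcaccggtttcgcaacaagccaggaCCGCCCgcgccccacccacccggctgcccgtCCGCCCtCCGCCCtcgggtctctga
Cdkn1a (chr17:29093519-29093768, plus strand): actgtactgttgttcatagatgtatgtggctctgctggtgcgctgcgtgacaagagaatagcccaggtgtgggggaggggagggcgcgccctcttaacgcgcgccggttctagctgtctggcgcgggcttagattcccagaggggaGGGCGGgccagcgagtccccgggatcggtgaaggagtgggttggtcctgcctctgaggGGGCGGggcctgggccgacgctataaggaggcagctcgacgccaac
Bbc3 (chr7:16309333-16309582, plus strand): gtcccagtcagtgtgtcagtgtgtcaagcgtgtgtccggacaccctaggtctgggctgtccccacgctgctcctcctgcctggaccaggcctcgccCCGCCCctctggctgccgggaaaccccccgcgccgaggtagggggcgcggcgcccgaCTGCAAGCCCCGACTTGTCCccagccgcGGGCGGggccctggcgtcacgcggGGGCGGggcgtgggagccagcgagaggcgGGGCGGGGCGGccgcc

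The stretch before the Stox2 start held the p53-family match, from base 97 to base 116, with 2 mismatches to the 20-base consensus. No other window met by a WT-only gene-body site held such a match with up to 3 mismatches. The WT summit lay 145 bp before the start, inside the match, and the peak had a fold enrichment of 15.4, where fold is the authors' ratio of the summit's read pileup to the local background. Trim7, which encodes a ubiquitin ligase of the tripartite motif family, had 2 GC boxes and a site with a fold of 8.38. Adgrf4, an adhesion G protein-coupled receptor, had 1 TGACTCA and a fold of 8.27. The Dram1 stretch held 4 GC boxes under a site with a fold of 6.78; Dram1 is a lysosomal regulator of autophagy known as a p53 target. Cdkn1a, which encodes the cell-cycle inhibitor p21, had 2 GC boxes and a fold of 4.57. Before the Bbc3 start, by contrast, 5 GC boxes stood beside a p53-family match with 3 mismatches, and the WT peak there had a fold of 79.7. Bbc3 encodes the apoptotic protein PUMA. All of the WT-only examples had folds above 3.87, the median of the 136 WT-only sites at a start, so they are not typical in strength.

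Inside gene bodies, most WT sites had an alphaKO counterpart. Of the 4347 WT gene-body sites, the 1221 WT-only sites made up 28.1% (95% Wilson interval 26.8 to 29.4), beside 33.4% (3550 of 10616) of all WT peaks. The share was 28.6% (1256 of 4392) for WT summits between genes and 57.2% (1073 of 1877) for WT summits within 1 kb of a gene end. In the other direction, 3497 of 6620 alphaKO gene-body sites (52.8%) had no WT counterpart. Wilson intervals here cover counting error only: neighbouring reads can copy 1 molecule, and peaks of 1 library do not replicate each other. By chromosome, the WT-only share of gene-body sites ran from 21.8% (46 of 211, chromosome 6) to 37.2% (16 of 43, chromosome X). The interval for chromosome X, 24.4 to 52.1%, included the genome-wide share, and that for chromosome 6, 16.8 to 27.8%, lay just below it. Both were picked as the extremes among the chromosomes.

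The WT-only sites were weak peaks. Their fold ranged from 1.93 to 21.3 with a median of 5.07 (quartiles 3.88 and 6.83), while the 3126 WT gene-body sites with an alphaKO partner had a median of 12.1 (quartiles 8.29 and 19.0) and a maximum of 167. At the summit, the median pileup was 46 reads for WT-only sites and 107 reads for WT sites with a partner. Their median −log10 q was 16.7, against 75.5 for WT sites with a partner. The width differed less, with medians of 351 bp for WT-only sites and 395 bp for WT sites with a partner. The local background recovered from pileup and fold was close, with medians of 8.17 reads at WT-only sites and 8.02 reads at WT sites with a partner. The groups thus differed in the height of the summit more than in the background under it.

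**Figure D1:**
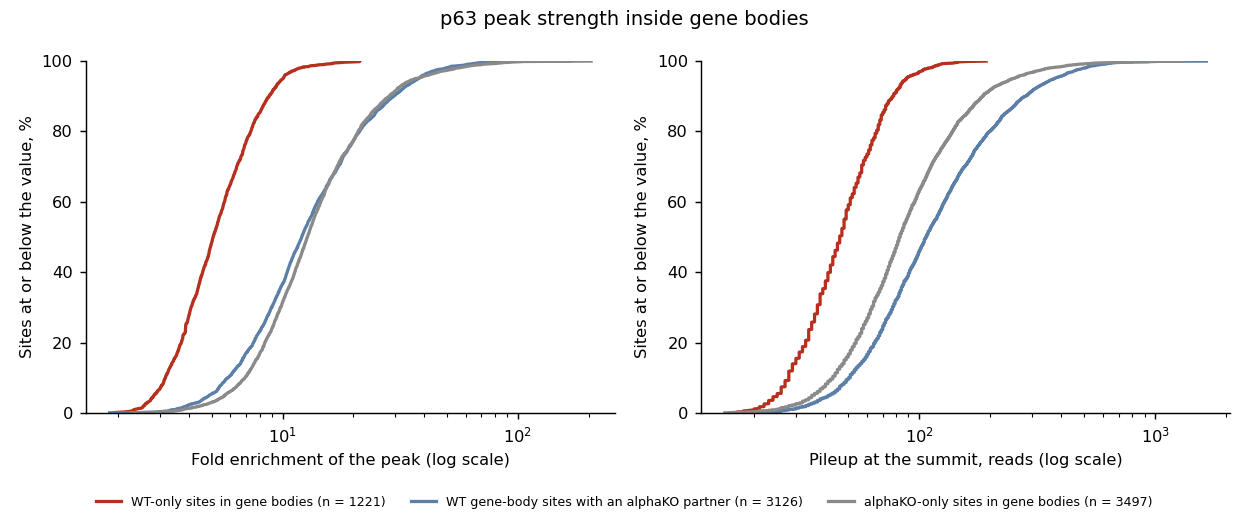
Share of sites (vertical axis, %) at or below a given fold enrichment (left) or summit pileup in reads (right), both on log scales, for WT-only gene-body sites (red, n = 1221), WT gene-body sites with an alphaKO partner (blue, n = 3126) and alphaKO-only gene-body sites (grey, n = 3497). The red curve lies left of the others, with a median fold of 5.07, against 12.1 (blue) and 12.8 (grey).

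The alphaKO-only gene-body sites did not mirror the WT-only ones. Their median fold was 12.8 and their median pileup 83 reads, and folds were measured against different backgrounds in the lists. Over whole lists the recovered background had a median of 5.81 reads in alphaKO and 8.31 reads in WT, and the fold a median of 15.5 in alphaKO and 8.44 in WT. Only 4.52% of alphaKO peaks had a fold below the 5.07 that was the median of the WT-only gene-body sites, while 23.7% of WT peaks did. Of the 1221 sites, 53.5% had a fold below the 5th percentile of the alphaKO list (5.27). How far the lower limit of the alphaKO calls set which WT sites lacked a partner was not tested.

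The WT-only share was lower at higher fold in gene bodies, between genes and at gene ends. In quintiles of the WT gene-body peaks by fold, from weakest to strongest, WT-only sites made up 76.1% (662 of 870), 43.0% (374 of 869), 17.6% (153 of 869), 3.11% (27 of 869) and 0.575% (5 of 870). At the same fold limits, WT summits between genes gave 73.2%, 44.3%, 16.0%, 3.56% and 0.261%. WT summits within 1 kb of a gene end gave 82.6%, 52.2%, 28.1%, 9.89% and 1.31%. Gene-body sites thus lay near the sites between genes at each strength, and below the sites at gene ends in each of the 5 fold ranges, although the intervals of gene-body and gene-end sites overlapped in the strongest range (0.246 to 1.34% and 0.359 to 4.64%).

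**Figure D2:**
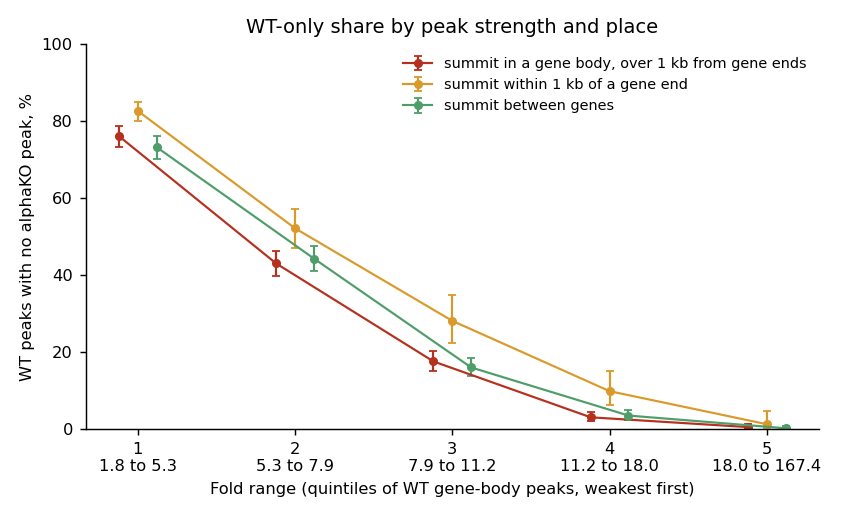
Percentage of WT peaks with no alphaKO peak (vertical axis) in 5 fold ranges, set by the quintiles of WT gene-body peaks, for summits in gene bodies (red), within 1 kb of a gene end (yellow) and between genes (green); bars are 95% Wilson intervals. The red points fall from 76.1% to 0.575%.

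The strongest WT-only gene-body sites lay in genes of varied roles. Positions below are summits, and each distance to an alphaKO peak is the gap between the facing edges of the peaks. Pak3, a kinase that acts downstream of Rac and Cdc42, held the first, at chrX:143519675, with a fold of 21.3 and a pileup of 120 reads. The gene held a second WT-only site and 2 alphaKO sites, and the nearest alphaKO peak was 146 kb from the first. Agap1, an Arf GTPase-activating protein, followed at chr1:89484062 with a fold of 21.3 and 3 alphaKO sites elsewhere in the gene, the nearest 10.1 kb away. Mpzl2, a cell adhesion protein of the immunoglobulin superfamily, had a fold of 21.1 at chr9:45046879 and no alphaKO summit in the gene. Rdh12, a retinol dehydrogenase, had a fold of 19.6 at chr12:79211719, where the nearest alphaKO peak lay 136 kb away. The cytokine gene Il11 had a fold of 18.1 at chr7:4777073, with the nearest alphaKO peak 21.2 kb away. These 5 sites were the only WT-only ones in the strongest quintile of WT gene-body peaks.

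The next sites by fold, down to the 15th rank, reached as low as 14.0. In Ksr1, Zbtb7b and Stox2, a WT site with an alphaKO partner stood beside the WT-only one. Zbtb7b, a zinc finger transcription factor, had a WT-only site at chr3:89384382 with a fold of 16.2 and the highest pileup of all 1221 sites, 192 reads. Its shared site had a WT fold of 15.5, and the alphaKO peak 5.28 kb from the edge of the WT-only peak had a fold of 8.95. Ksr1, a scaffold of Ras and MAP kinase signalling, had a WT-only fold of 16.4 at chr11:79103574, an alphaKO peak 8.20 kb away and 3 shared sites.

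Other strong WT-only sites lay in genes without any alphaKO summit. Nr4a2, an orphan nuclear receptor, had a fold of 16.9 at chr2:57111855, 155 kb from the nearest alphaKO peak. Lpar3, a receptor for lysophosphatidic acid, had a fold of 15.2 at chr3:146264406, 156 kb from the nearest alphaKO peak. Pias4, a SUMO ligase, had a fold of 14.0 at chr10:81155357, and Borcs7, a subunit of the complex that positions lysosomes, 14.2 at chr19:46693741. For these the nearest alphaKO peaks were outside the gene, 7.89 kb from the Pias4 site and 28.3 kb from the Borcs7 site. Nos1ap, an adaptor of neuronal nitric oxide synthase, had a fold of 16.2 at chr1:170406994 and a single alphaKO site 19.9 kb away.

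At the other end of the range, WT-only sites barely stood above their background. The lowest folds were 2.11 in Csnk1a1, a casein kinase, 1.99 in Wdr1, an actin-disassembly factor, and 1.93 in Stard13, a GTPase-activating protein. Their summit pileups were 34, 30 and 34 reads in that order. The limit of 1 kb from a gene end separated similar sites. Just inside it were Morf4l1 (1010 bp from the gene end, fold 14.9), Ica1 (fold 3.57) and Maml1, a Notch coactivator (fold 3.12). Just outside it were WT-only peaks of Rhbdf1 (fold 4.13), Sgms2, a sphingomyelin synthase (fold 10.5), and the translation factor gene Eif4a1 (fold 4.79). The Morf4l1 peak extended across the listed start of the gene.

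One WT-only site had a listed p-value that its pileup does not give. In Bad, a pro-apoptotic member of the BCL2 family, the peak had a fold of 11.4 and a pileup of 85 reads. Its listed −log10 p was 552, whereas a Poisson tail at its pileup and recovered background gives 63.1. Of 9997 WT peaks compared it was the only one to differ by more than 1, and none of 12198 alphaKO peaks did. Its −log10 q of 547, the highest of the 1221 sites, was given no weight here.

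About 2 in 3 WT-only sites lay in a gene that also held an alphaKO summit. For 822 sites (67.3%, 64.6 to 69.9) an alphaKO summit lay elsewhere in the same gene, and for 645 (52.8%) the gene also held a WT site with an alphaKO partner. The other 399 sites (32.7%) lay in genes with no alphaKO summit. The matching share over all genes, or over genes of similar length, was not taken, so these shares have no baseline. The gap between peak edges to the nearest alphaKO peak had a median of 17.1 kb (quartiles 5.21 and 51.1 kb). The gap was within 500 bp for 37 sites (3.03%), within 1 kb for 83 (6.80%) and within 10 kb for 453 (37.1%), and over 100 kb for 135 (11.1%).

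The closest pairs were in Nfkb2, a subunit of NF-kappaB, in Fcho2, an endocytic protein, and in Baiap2l1, a regulator of actin at the membrane. The edge of the WT-only Nfkb2 peak, with a fold of 3.91, lay 0.168 kb from that of an alphaKO peak with a fold of 4.37. In Fcho2 the gap was 0.233 kb, with folds of 4.46 for the WT-only site and 5.48 for the alphaKO peak. The Baiap2l1 site had a fold of 3.73, 0.251 kb from an alphaKO peak with a fold of 12.3. The most isolated sites lay in Lancl3 (1299 kb from an alphaKO peak, fold 5.89), Fgf13, a member of the fibroblast growth factor family that acts inside cells (1188 kb, fold 7.62), both on chromosome X, and Tmtc2 (1035 kb, fold 7.10).

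The 1221 sites fell in 1010 protein-coding genes, 4.61% of 21887, and these were 38.3% of the 2638 genes with any WT gene-body site. Of the 1010 genes, 835 held 1 WT-only site, 140 held 2 and 35 held 3 or more. A further count shows the genes for which p63 sites were listed in WT alone: 367 of the 1010 had no alphaKO summit, and 348 of those had no other WT summit either. All 1010 were taken for holding a WT-only site. The reverse count, of genes with an alphaKO-only site and no WT summit, was not taken. These counts thus have no baseline and do not give a number of genes that lose p63. Host genes were long, with a median of 81.0 kb for genes with a WT-only site, 65.6 kb for genes with any WT gene-body site and 17.2 kb for all protein-coding genes. WT-only summits lay a median of 16.5 kb from a gene end, and WT summits with a partner 19.5 kb. Length alone gives a gene more room for a summit, and its part in these counts was not tested.

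Of the 7 genes with 4 or more WT-only sites, Bcor had no alphaKO peak. Bcor, a corepressor of the transcription repressor BCL6 on chromosome X, held 4 WT-only sites with folds of 9.81, 9.01, 6.03 and 4.20 and pileups of 54, 57, 34 and 25 reads. No other WT site lay in the gene, and the nearest alphaKO peak was 61.6 kb from any of them. Tex14, a gene known for intercellular bridges of germ cells, held 5 WT-only sites with folds of 7.39, 7.06, 5.83, 5.09 and 5.02. Tex14 also held 1 shared site, where the alphaKO peak had a fold of 2.85 and the WT peak 9.50. This site went against the whole lists, in which alphaKO folds were the higher.

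Each of the other multi-site genes also held at least 1 shared site, and its strongest WT site was a shared one. In Gse1 every WT-only site was weaker than every shared WT site of the gene, and in Specc1 weaker than its only shared WT site. In Ablim1, Tiam1 and Sipa1l3 the ranges overlapped. Ablim1, an actin-binding LIM protein, held 5 WT-only sites with folds between 3.94 and 10.9, beside 4 WT sites with a partner from 5.70 to 21.7. Gse1 held 5 WT-only sites with folds between 3.62 and 6.37, beside 8 WT sites with a partner from 6.62 to 58.8. Tiam1, a guanine nucleotide exchange factor for Rac, held 4 with folds between 4.10 and 5.34, beside 10 WT sites with a partner from 3.63 to 44.5. Sipa1l3, a Rap GTPase-activating protein, held 4 with folds between 4.00 and 5.88, beside 10 WT sites with a partner from 5.20 to 36.5. Specc1 held 4 with folds between 4.39 and 6.89, beside 1 WT site with a partner. Sites in 1 gene share their locus and are not replicates.

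**Figure D3:**
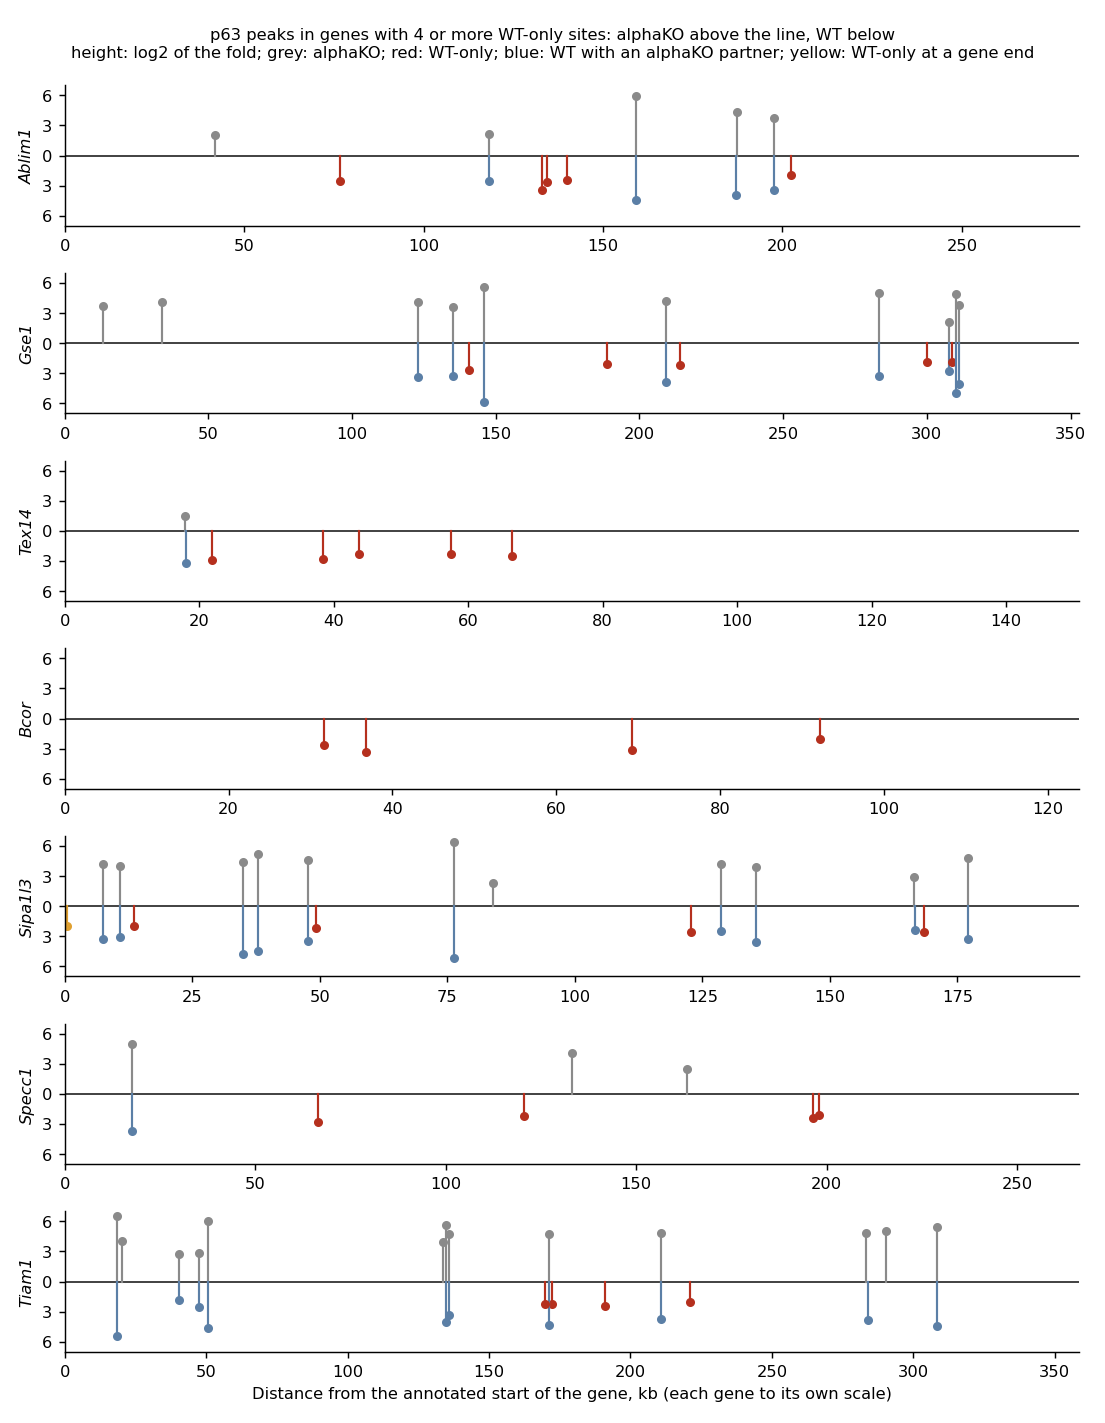
Peaks along the 7 genes with 4 or more WT-only gene-body sites, by distance from the annotated start of the gene in kb (horizontal axis, its own scale per gene); stems point up for alphaKO peaks (grey) and down for WT peaks (red, WT-only in the gene body; blue, with an alphaKO partner; yellow, WT-only within 1 kb of a gene end), and their height is the log2 of the fold. Bcor has red stems alone, while Gse1, Sipa1l3 and Tiam1 have red stems shorter than most blue ones.

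Trp63, the gene of p63 itself, held 1 WT-only gene-body site among 5 WT sites. Its summit at chr16:25780202 had a fold of 5.96 and a pileup of 70 reads. The peak edge lay 13.8 kb from that of the nearest alphaKO peak, whose fold was 26.9. The gene's other 4 WT sites had alphaKO partners, with WT folds of up to 110.

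WT-only gene-body sites met listed promoter windows in a larger share than the other gene-body sites did. RefSeq's promoter table lists 300-base windows, 250 bases before to 50 after each start, for several starts per gene. The peaks of 136 WT-only sites met such a window, 112 at a start of the host gene and 24 at a start of a long noncoding RNA. Because 76.7% of the WT-only sites lay in genes with a listed window, shares were taken over those sites: 131 of 936 WT-only sites (14.0%, 11.9 to 16.4) met a window. Of WT sites with a partner, 95 of 2499 did (3.80%, 3.12 to 4.62), and of alphaKO-only gene-body sites 34 of 2755 (1.23%, 0.884 to 1.72). The intervals of the 3 groups did not overlap, but they cover counting error only and the groups were chosen from the same libraries.

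The weakest sites carried much of this contrast. In the weakest fold quintile, 108 of 502 WT-only sites (21.5%, 18.1 to 25.3) and 16 of 156 WT sites with a partner (10.3%, 6.41 to 16.0) met a window. In the second the shares were 5.12% (15 of 293) for WT-only sites and 5.56% (22 of 396) for WT sites with a partner. In the third they were 4.31% (5 of 116) for WT-only sites and 2.40% (14 of 583) for WT sites with a partner, and the intervals overlapped in both of these ranges. In the fourth, 3 of 21 WT-only sites (14.3%, 4.98 to 34.6) met a window, beside 2.19% (15 of 686) of WT sites with a partner. In the strongest, 0 of 4 WT-only sites did, too few for a share, beside 28 of 678 WT sites with a partner.

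Sites at these starts were also shaped differently. WT-only sites at a start had a median fold of 3.87, a median width of 412.5 bp and a median background of 9.44 reads. Other WT-only sites in genes with a listed window had a median fold of 5.34, a width of 346 bp and a background of 7.79 reads. WT sites with a partner at a start had a median fold of 9.97, a width of 526.5 bp and a background of 9.91 reads, so a raised background and a broader peak went with starts in both groups. The part of the higher background in these calls was not tested. The ends of long noncoding RNA genes gave a contrast in the same direction: 67 WT-only gene-body sites (5.49%, 4.34 to 6.91) and 77 WT sites with a partner (2.46%, 1.98 to 3.07) lay within 1 kb of one.

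The windows met by WT-only gene-body sites held GC boxes and CpG in larger shares than all listed windows, and p53-family motifs in a share near that of all windows. The first trait was not particular to gene bodies: of the 665 windows met by WT-only sites at gene ends, 79.8% held a GC box, 87.7% were CpG-rich, and 12 held a p53-family match. GGGCGG or its complement stood in 97 of 136 windows met by WT-only sites (71.3%), in 43.0% of the 100 windows met by WT sites with a partner, in 38.9% of the 36 met by alphaKO-only sites and in 35.7% of all 32851 windows. A CpG ratio (observed over expected) of at least 0.6 was found in 67.6% of windows met by WT-only sites, 52.0% of those met by WT sites with a partner, 30.6% of those met by alphaKO-only sites and 35.8% of all windows. Of the WT-only examples printed above, Stox2 (0.313), Trim7 (0.494) and Adgrf4 (0.245) fell below that ratio, and Dram1 (0.922) and Cdkn1a (0.786) above it. The median GC content was 67.2% in windows met by WT-only sites, 58.0% with a partner, 53.5% for alphaKO-only sites and 52.7% in all windows. A p53-family consensus match stood in 1 window met by a WT-only site (0.735%), in 12 of 100 met by WT sites with a partner (12.0%), in 9 of 36 met by alphaKO-only sites (25%) and in 1.38% of all windows. The consensus is a palindrome of 20 bases, so both strands were read at once, with 4 core letters fixed and up to 3 mismatches elsewhere. TGACTCA or its complement TGAGTCA stood in 10.3% (14 of 136) of windows met by WT-only sites, 12.0% of those met by WT sites with a partner, 13.9% of those met by alphaKO-only sites and 5.20% of all windows. GC boxes overlap with CpG content, a motif may overlap another, and a match in a window is not a bound site.

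Among weaker sites the windows differed in the same direction, on small numbers. With folds under 8.77, the upper decile of the WT-only sites, 0 of 131 windows met by WT-only sites and 3 of 46 met by WT sites with a partner (6.52%) held a p53-family match. In the same range GC boxes stood in 73.3% of the windows met by WT-only sites and in 47.8% of those met by WT sites with a partner, and 70.2% of the windows of WT-only sites and 60.9% of those of WT sites with a partner were CpG-rich. With the summit itself inside the window, 1 of 80 windows met by WT-only sites and 8 of 32 met by WT sites with a partner (25%) held a match. The 1 match was that of Stox2, whose site was also the strongest WT-only site at a start.

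**Figure D4:**
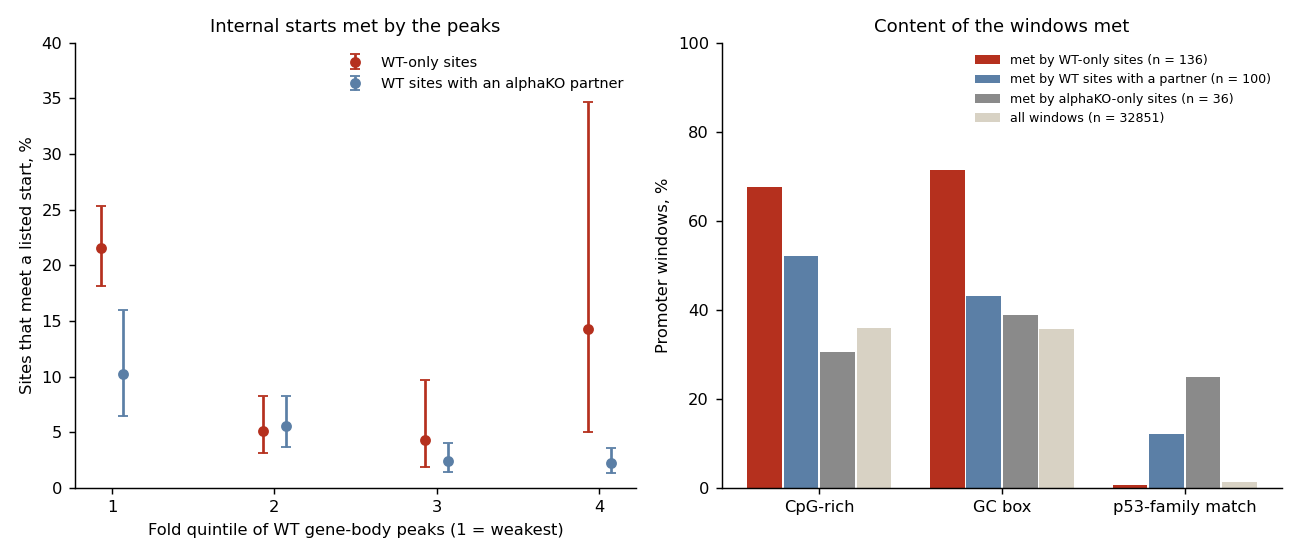
Left, percentage of sites that meet a listed transcription start (vertical axis) in fold quintiles of WT gene-body peaks, for WT-only sites (red) and WT sites with an alphaKO partner (blue), with 95% Wilson intervals; the strongest quintile, with 4 WT-only sites, is left out. Right, percentage of promoter windows (vertical axis) that are CpG-rich, hold a GC box or hold a p53-family match, where the windows met by WT-only sites (red, n = 136) hold a GC box in 71.3% and a p53-family match in 0.735%, close to the 1.38% of all windows.

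Cdkn1a held 2 WT-only sites, 1 of them at a listed start. Among the 9 genes of the p53-family target list with a WT gene-body site it was the only one to hold any; Dram1 is not in that list. The site at chr17:29093647, over the start printed above, had a fold of 4.57 and a pileup of 47 reads, 0.498 kb from an alphaKO peak. The site at chr17:29097260 had a fold of 4.59 and a pileup of 34 reads, 2.33 kb from the same alphaKO peak. At that neighbouring shared site the alphaKO peak had a fold of 7.50 and the WT peak 12.7. Over the whole list of p53-family targets, 2 of 17 WT gene-body sites were WT-only (11.8%), against 28.1% of all WT gene-body sites.

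Gene groups were compared by their WT-only share of gene-body sites, for 26 lists with 834 genes in all, whose members held 202 of the 1221 sites (16.5%). These shares rest on few sites per list and carry no test. They were not matched for fold, although the WT-only share was lower at higher fold. Counts of genes without an alphaKO summit are to be read beside 367 of all 1010 genes with a WT-only site. Anchoring to the basement membrane, by which basal keratinocytes attach, stood near the overall share with 14 of 47 sites (29.8%) in 9 genes. Each of the 9 genes also held an alphaKO summit. Plec, the cytolinker plectin, held 3 WT-only sites, the strongest with a fold of 7.93. Dst, a plakin of hemidesmosomes, had a fold of 6.87 at 0.327 kb from an alphaKO peak, and Fras1, an extracellular matrix protein of the basement membrane, 6.88.

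Junctions between cells divided. Adherens junction, tight junction and polarity genes had 17 of 38 WT gene-body sites WT-only (44.7%), in 10 genes, 2 of them without an alphaKO summit. Nectin4, an adhesion molecule of adherens junctions, led them with a WT-only fold of 11.2, 8.15 kb from an alphaKO peak with a fold of 43.1. Tjp1, a scaffold of tight junctions, had a fold of 6.54, and the polarity gene Pard3b had 7.05, 348 kb from an alphaKO peak. Desmosome genes had 3 of 20 sites WT-only: Pkp1, a plakophilin (fold 6.28), Dsc1, a desmocollin (3.85), and Pkp4 (3.45). Of these, Pkp1 held 7 WT sites with a partner and Dsc1 held no alphaKO summit.

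Genes of the upper epidermal layers and of the lipid barrier had the highest WT-only shares among lists with 10 or more sites, each on 13 sites. Suprabasal and cornified envelope genes had 7 of 13 WT-only (53.8%). Of the 5 genes with a WT-only site 3 had no alphaKO summit, beside 367 of 1010 over all such genes. After Mpzl2, Tgm1, the transglutaminase that crosslinks the cornified envelope, had a fold of 10.0 at chr14:55711368, 3.50 kb from an alphaKO peak outside the gene. Krt78, a type II keratin, held 3 WT-only sites, among them folds of 9.70 and 8.75, near a shared site with an alphaKO fold of 40.7 and a WT fold of 30.8. Barrier lipid genes also had 7 of 13 sites WT-only (53.8%). Beside Rdh12, Sptlc3, a subunit of serine palmitoyltransferase, had 1 with a fold of 4.25 and held no alphaKO summit.

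**Figure D5:**
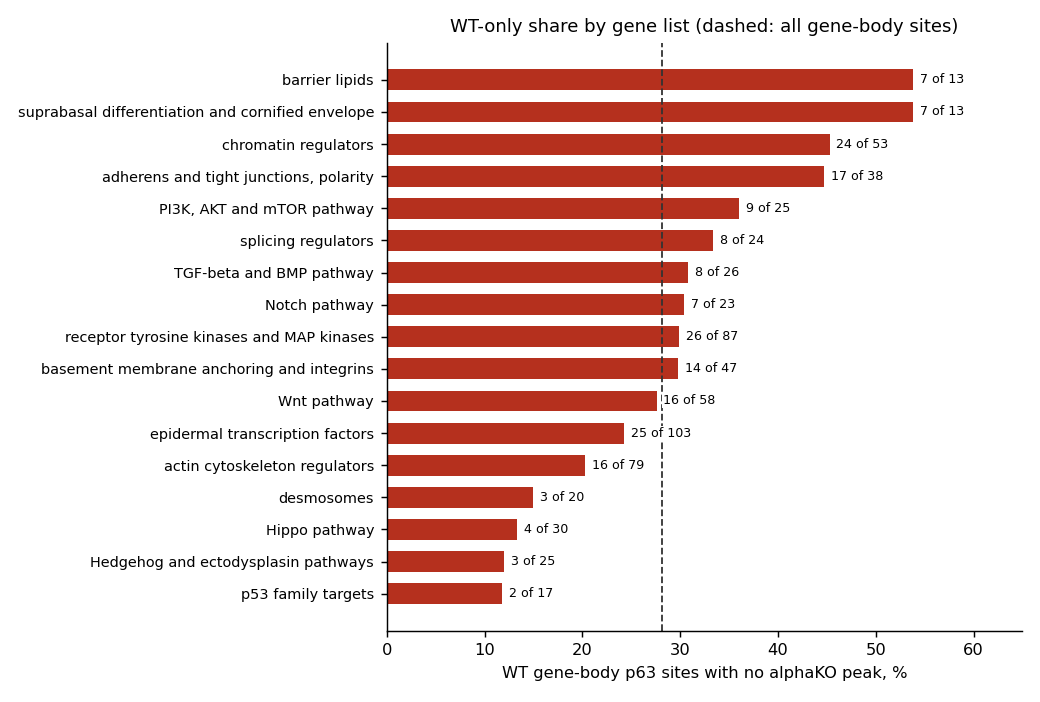
Percentage of WT gene-body p63 sites without an alphaKO peak (horizontal axis) for each gene list with at least 10 such sites, with WT-only sites and all WT gene-body sites written at each bar; the dashed line is the share of all WT gene-body sites, 28.1%. Barrier lipid and suprabasal genes stand at 53.8% on 13 sites each, and p53-family targets at 11.8% on 17 sites.

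Chromatin regulators also stood above the overall share. They had 24 of 53 sites WT-only (45.3%), and 18 of the 25 chromatin genes with a WT gene-body site held at least 1 (72.0%), against 38.3% of all genes with such a site. Of these 18 genes, 8 had no alphaKO summit, not far from the 367 of all 1010 genes with a WT-only site. Kdm6b, a demethylase of histone H3 lysine 27, held 3 WT-only sites, the strongest with a fold of 10.9, 1.97 kb from an alphaKO peak. Jarid2, a partner of Polycomb repressive complexes, had 10.0 at 0.329 kb from an alphaKO peak. Arid1b, a subunit of the BAF remodelling complex, had 9.67, and Tet3, which oxidises methylated cytosine, 7.98. The median fold of the 24 sites was 4.60, below that of all WT-only gene-body sites.

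Transcription factors of the epidermis had 25 of 103 sites WT-only (24.3%), in 20 genes, 4 of them without an alphaKO summit. Pou2f3, a POU-domain factor of differentiating keratinocytes, had a WT-only fold of 10.5 and a second WT-only site. The retinoid receptor genes Rarg and Rxra had folds of 10.2 and 9.03, each beside shared sites, and the strongest alphaKO peaks in these genes had folds of 90.7 in Rarg and 106 in Rxra. Runx2 had a fold of 8.86. Splicing regulators had 8 of 24 sites WT-only (33.3%), led by Esrp1, an epithelial splicing factor, with a fold of 10.1 and no alphaKO summit in the gene. Celf2 had 8.20, Hnrnpu 4.68 and Mbnl2 4.65. The single WT gene-body site in ribosomal protein genes, in Rps2, was WT-only, with a fold of 3.06, and met a listed start.

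Signalling genes spread around the overall share. Receptor tyrosine kinases, their ligands and MAP kinase genes had 26 of 87 sites WT-only (29.9%), in 20 genes. Ephb2, an ephrin receptor, led with a fold of 13.8 and no alphaKO summit in the gene. Met, the receptor of hepatocyte growth factor, had 10.2 at 11.8 kb from an alphaKO peak with a fold of 69.3. Rasa3, a Ras GTPase-activating protein, held 3 WT-only sites, the strongest at 8.42, and the MAP kinase phosphatase gene Dusp16 had 8.11 and no alphaKO summit. PI3K, AKT and mTOR genes had 9 of 25 sites WT-only (36.0%), with folds of 6.17 in Pdpk1, 5.32 in Rptor and 4.71 in Sgk1 for their strongest.

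Among developmental pathways, Notch genes had 7 of 23 sites WT-only (30.4%). The receptor genes led: Notch3 had a fold of 12.3 at chr17:32162341, 88.2 kb from an alphaKO peak, Notch2 had 6.76 and 4.89, and Notch1 had 4.08. Neither Notch3 nor Notch1 held an alphaKO summit, whereas Notch2 held 2. Wnt pathway genes had 16 of 58 (27.6%), in 15 genes, with Dvl1, a transducer of Frizzled receptors, at 10.4, Tnik at 7.26, and the coactivator Bcl9l and corepressor Tle3 at 6.85 and 6.74. TGF-beta and BMP genes had 8 of 26 (30.8%), led by Smad9 at 11.3, 208 kb from an alphaKO peak, then Ltbp1, a binding protein of latent TGF-beta, at 7.85, Bmp7 at 6.68 and the SMAD corepressor Ski at 6.52.

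Other groups lay below the overall share. Regulators of the actin cytoskeleton had 16 of 79 sites WT-only (20.3%), and each of the 11 genes also held an alphaKO summit. After Pak3 came Vav3, a guanine nucleotide exchange factor (9.40), and Elmo1, a partner of Rac activators (8.45). Hippo genes had 4 of 30 (13.3%), in Amotl1 (7.86 and 4.51), Wwtr1, which encodes TAZ (4.56), and Fat1 (4.34). Hedgehog and ectodysplasin genes had 3 of 25 (12.0%), among them the ectodysplasin receptor gene Edar (7.73) and Tnfrsf19 (2.75).

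Outside the neuron list, marker lists of other cell types held no WT-only site. Those lists had 8 to 15 genes each, with median gene lengths from 8.70 to 90.0 kb. Over all protein-coding genes 4.61% held a WT-only site, so on so few genes this absence carries no weight. Melanocyte, immune, dermal fibroblast and liver lists held no WT gene-body site at all. The endothelial list held 5, the Merkel cell list 1 and the skeletal muscle list 1, and none of these was WT-only. The neuron list held 8 WT gene-body sites, of which 5 were WT-only, in Cntnap2 (fold 8.07), Gria2 (5.76), Dlg2 (5.49 for the stronger of 2) and Camk2a (4.87). The 16 neuron genes had a median length of 425 kb, against 17.2 kb for all genes, and of these 4 hosts only Dlg2 held an alphaKO summit. Across the whole neuron list, however, alphaKO had 16 gene-body sites, of which 13 had no WT counterpart.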

How the data were processed

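p63 ChIP-seq peak lists of 1 alphaKO and 1 WT library of newborn mouse epidermis were used. The submitters' processing notes name the mm10 build, Bowtie2 and MACS2 (2.1.1.20160309). Which options and control the calls had, and whether duplicates were removed, is not given in the sources used here; input libraries were not used here. Columns deposited by the authors, per the file headers, are the position and summit of a peak, its fold enrichment (a ratio of pileup to background), its summit pileup (a signal in reads), and p-value and q-value as −log10. Each list came from a single library. The smallest −log10 q was 1.36 in alphaKO and 1.31 in WT. Read totals are not in the lists, so depth is unknown.

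Overlap meant 1 shared bp. Background was recovered as (pileup + 1)/fold − 1. Genes (21887 protein-coding) came from RefSeq GRCm38.p6, whose table has no exons, so exonic or intronic place was not analysed here. Promoter windows (32851, of 27025 genes) also gave strand; because fewer than 80% of sites lay in a gene with a strand, place along the gene is void and not given. The 43 WT-only sites on chromosome 18 had no window. Sites inside overlapping genes (9) count for each gene. Shares carry 95% Wilson intervals. No test was made, with 1 library per genotype. Tools were pandas 2.3.3 with NumPy 2.4.6 under Python 3.11.15, SciPy 1.17.1 for intervals and matplotlib 3.10.9 for plots. The code for peak overlap, host genes and gene-end distance was tested on simulated peaks, and the motif and interval code was not.

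The sites, gene lists and rules were chosen with earlier results of these data known. Named genes were the hosts of the 15 strongest sites, up to 4 strongest sites per list, the genes with most sites (5, with ties), the 3 nearest to and farthest from an alphaKO peak, 3 on each side of the 1 kb limit, the 3 weakest and Trp63. Bad, Bbc3, Trim7, Adgrf4 and Dram1 were added after their values were seen. Alternatives were other q, fold, overlap, gene-end and list-length rules. Some genes that the rule takes are left out of the text.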

Additional observations from a re-analysis of the deposited data

How the results depend on the processing

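No paired analysis was possible because each genotype had 1 ChIP library and no test was made. Of the values set against alternatives, 73 stayed within their interval or within 1.5 times of a count, and 31 moved. Changes of direction were not scored. Alternatives for starts and motifs were chosen after seeing the data. The causes of the shifts were not tested, except that stricter limits on peaks remove weak sites by construction. The WT-only share of gene-body sites, 28.1%, was 23.6% once −log10 q had to reach 10, 19.2% once the fold had to reach 5 (687 sites in 613 genes), 26.2% without alphaKO peaks within 1 kb, 31.0% with summits matched within 100 bp, 26.6% over 5 kb from gene ends and 40.1% with the alphaKO list cut to the length of the WT list. The share of WT-only sites whose gene held an alphaKO summit, 67.3%, became 70.4% with summits matched within 100 bp, 64.0%, 70.1% and 76.0% over 500 bp, 2 kb and 5 kb from gene ends, and 60.5% with equal list lengths. The median fold of WT-only sites was 5.27 and 5.84 with −log10 q limits of 5 and 10, 6.76 with a fold limit of 5 and 5.47 with equal list lengths, and that of WT sites with a partner 12.8 and 13.6 under the last 2 of these. Over 5 kb from gene ends, the median distance to one became 28.4 kb.

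The share of sites at a listed start became, for WT-only sites, 9.93% with a −log10 q limit of 10, 8.78% over 5 kb from gene ends, 11.1% over all sites and 9.08% with the summit in the window, and, for WT sites with a partner, 2.25% over 5 kb and 1.44% with the summit in the window. WT-only sites had the higher share in each of these for which both were printed. The share of windows with a p53-family match became 4.41% at 4 mismatches and 0% under a fold of 8.77 for WT-only sites, 25% with the summit inside and 6.52% under that fold for WT sites with a partner, and 8.33% at 2 mismatches for alphaKO-only sites. At 4 mismatches 4.80% of all windows held a match. Weak alphaKO sites under the calling threshold would not be listed, and 1 library per genotype leaves the variation between animals unmeasured.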
